A study of Mus musculus with 2 samples.

Results

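Pericytes and vascular smooth muscle cells are the mural cells of blood vessels, and 10 genes used to mark them were read from total RNA of mouse gastrocnemius, a fast calf muscle. The 10 genes were taken by name from the 55536 gene IDs of the deposited gene tables. The 6 pericyte genes were Rgs5, Abcc9, Pdgfrb, Cspg4, Notch3 and Mcam. The 4 contractile genes were Tagln, Cnn1, Myh11 and Lmod1. The rule is the list of names and sets no threshold on a measured value. No gene was dropped. Pericytes sit in the basement membrane of capillaries and are recruited by PDGF-B from endothelial cells, which acts on the receptor encoded by Pdgfrb. Vascular smooth muscle cells wrap arterioles and larger vessels and contract through a smooth muscle myosin and actin apparatus whose genes are driven by serum response factor and its myocardin-family cofactors. Many of these genes are also used outside the vessel wall, and whole muscle RNA does not show which cell types a level came from.

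The mice were untreated females of the hybrid strain B6CASTF1/J at 14 days of age, with no allele or agent named beyond the strain cross. Of this single group 2 libraries were made, replicate 2 and replicate 1, each from 300 ng of RNA. The labels call them biological replicates, but the text for replicate 2 names a single female in 1 place and 3 females in another, while that for replicate 1 names 3 females, so it was not clear whether the libraries differ by animal, and their spread may be only technical. The only comparison the design allows is replicate 2 over replicate 1. It shows how steady each level was and compares no condition.

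Replicate 2 held 42105856 expected gene counts and replicate 1 held 35592003. Library sizes were scaled with TMM, which centres the ratios of most genes near 0. Over the 15734 genes with a summed count of at least 20, the log2 ratio of replicate 2 over replicate 1 had a median of 0.01, quartiles of -0.17 and 0.21, and central 95% limits of -0.93 and 1.01. Of these genes, 51.37% lay above 0. Scaling by the sum of gene counts moved that median up by 0.13 and scaling by the ERCC spike-ins moved it up by 0.22. The calf muscle itself was evident in its fibre genes: alpha-skeletal actin Acta1, the fast myosin light chain Mylpf, creatine kinase Ckm and 2 further fibre genes summed to 98500 TPM in replicate 2 and 93200 TPM in replicate 1. In bulk RNA of this kind, fewer cells of a type and less RNA per cell cannot be told apart. Intervals of the log2 ratios and p-values of the exact binomial test below cover counting error only. The p-values of edgeR's exact test also take in a spread estimated between the 2 libraries.

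All 10 genes were detected, and 9 of them reached 1 TPM (abundance per transcript length, on a common total in each library) in both libraries, the exception being Cnn1. By mean TPM the order was Rgs5, Abcc9, Mcam, Tagln, Pdgfrb, Notch3, Myh11, Cspg4, Cnn1 and Lmod1. The values of the libraries overlapped between the neighbours Mcam and Tagln, Tagln and Pdgfrb, Myh11 and Cspg4, and Cnn1 and Lmod1. Tagln and Pdgfrb, and likewise Cnn1 and Lmod1, stood in opposite order in the 2 libraries. The 10 mean levels had a median of 17.6 TPM, beside a median of 4.4 TPM over the 15465 coding genes detected. No member shared reads with another gene, since the deposited posterior standard deviation of its count was 0 in both libraries.

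**Figure D1:**
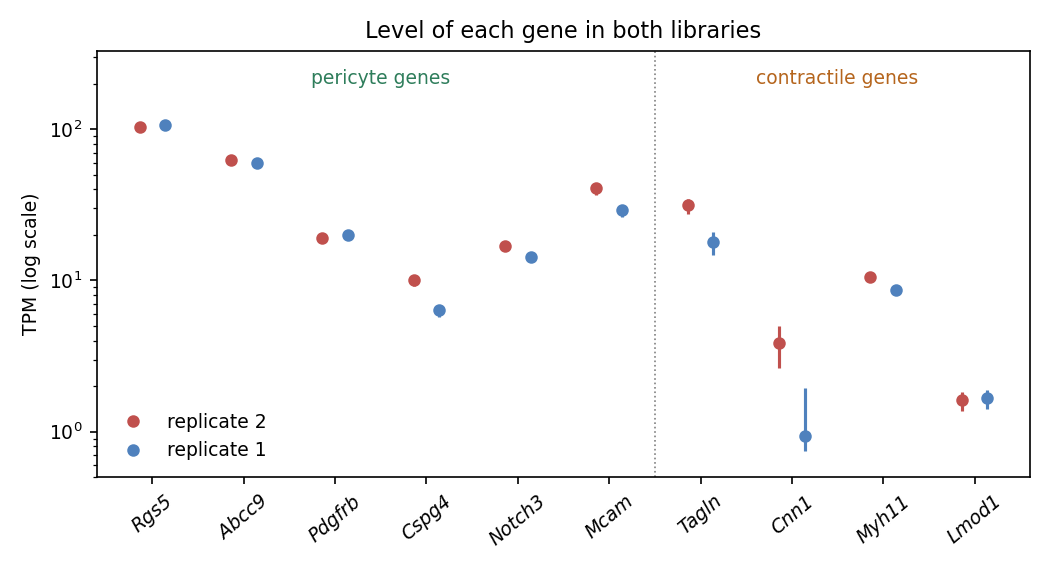
Level of the 6 pericyte and 4 contractile genes in TPM (log scale), with replicate 2 left of replicate 1; points are the deposited TPM and lines the deposited interval around the posterior mean, which need not hold the point. Rgs5 and Abcc9 lay highest, and Cnn1 was the gene whose libraries lay farthest apart, at 3.84 TPM in replicate 2 and 0.94 TPM in replicate 1.

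Rgs5 (ENSMUSG00000026678.10, mm10 chr1:169655501-169695813, plus strand) encodes a regulator that shortens signalling by G protein-coupled receptors and is among the most used pericyte markers. It had 104.05 TPM in replicate 2 and 106.95 TPM in replicate 1, a mean of 106 ± 2.05 TPM (SD, n = 2). The libraries lay close together, and 96.5% of detected coding genes had a lower mean level. On the scale of TMM-scaled counts its log2 ratio was -0.20 (95% interval -0.23 to -0.16, exact binomial, adjusted p = 1.95e-26), but the direction depended on the scaling, with 0.02 under ERCC scaling. Transcript Rgs5-201 held 99.34% of the gene's TPM in replicate 2 and 99.14% in replicate 1.

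Pdgfrb (ENSMUSG00000024620.11, mm10 chr18:61045150-61085061, plus strand) encodes the receptor through which PDGF-B recruits pericytes. It had 19.0 TPM in replicate 2 and 20.09 TPM in replicate 1 (19.5 ± 0.771 TPM, SD, n = 2). This was again a small spread, with replicate 2 the lower. The log2 ratio was -0.24 (-0.31 to -0.17, exact binomial, adjusted p = 4.07e-10), and its size shrank to -0.02 under ERCC scaling. Notch3 (ENSMUSG00000038146.8, mm10 chr17:32120820-32166852, minus strand) encodes the Notch receptor typical of mural cells, which is needed for the maturation of arterial smooth muscle. It had 16.88 TPM in replicate 2 and 14.36 TPM in replicate 1 (15.6 ± 1.78 TPM), with a log2 ratio of 0.15 (0.09 to 0.22, exact binomial, adjusted p = 5.48e-05). Replicate 2 was the higher, by less than the spread that the central 95% of all genes showed.

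Cspg4 (ENSMUSG00000032911.6, mm10 chr9:56865033-56899870, plus strand) encodes NG2, a surface proteoglycan of pericytes and of other progenitor cells. It had 10.02 TPM in replicate 2 and 6.34 TPM in replicate 1 (8.18 ± 2.60 TPM, SD, n = 2). Its log2 ratio of 0.35 (0.25 to 0.45, exact binomial, adjusted p = 1.44e-10) was the highest of the pericyte genes, above that of 84.1% of all genes tested. Part of the difference lay outside its coding transcript. Transcripts annotated as retaining an intron held 38.0% of Cspg4 TPM in replicate 2 and 21.8% in replicate 1, with 460.3 and 145.8 expected counts in those libraries. The coding transcript Cspg4-201 had 6.21 TPM in replicate 2 and 4.96 TPM in replicate 1. In the second deposited quantification, made directly from the reads, the intron-retaining share was 17.5% in replicate 2 and 8.11% in replicate 1, lower in both but in the same order.

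Abcc9 (ENSMUSG00000030249.15, mm10 chr6:142587862-142702315, minus strand) encodes SUR2, the regulatory subunit of ATP-sensitive potassium channels, which pairs in vascular cells mainly with the pore Kir6.1, encoded by Kcnj8, and in striated muscle mainly with Kir6.2, encoded by Kcnj11. It had 62.09 TPM in replicate 2 and 59.43 TPM in replicate 1 (60.8 ± 1.88 TPM, SD, n = 2), the second highest level of the 10 genes. Its log2 ratio was -0.11 (-0.14 to -0.07, exact binomial, adjusted p = 3.94e-08), and its direction turned to 0.02 when scaled by the sum of gene counts and to 0.11 with ERCC scaling. Kcnj8 had 10.41 TPM in replicate 2 and 9.87 TPM in replicate 1, and Kcnj11 had 34.48 TPM in replicate 2 and 33.77 TPM in replicate 1. Per length, Kcnj11 was thus 3.31 times Kcnj8 in replicate 2 and 3.42 times in replicate 1. Abcc9 stood at 5.96 times Kcnj8 in replicate 2 and 6.02 times in replicate 1. Abcc8, which encodes the related subunit SUR1 of pancreatic beta cells and neurons, was low at 1.73 TPM in replicate 2 and 1.64 TPM in replicate 1.

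Of the 6 Abcc9 transcripts, 5 were grouped by 1 of 2 alternative last coding exons. Abcc9-205, of 1458 bases, was left out. It held 3.44% of Abcc9 TPM in replicate 2 and 2.25% in replicate 1, or 10.2% and 8.53% by the second deposited quantification. The 2 exons are shown because they separate the form known from heart and skeletal muscle, SUR2A, from the form known from vascular smooth muscle, SUR2B. Both are 135 bases long and are read from the GENCODE M21 transcripts of mm10, on the minus strand of chromosome 6, with capitals at the bases that differ between them. The SUR2A ending lies at chr6:142594008-142594142 and the SUR2B ending at chr6:142590369-142590503.
Abcc9 SUR2A ending: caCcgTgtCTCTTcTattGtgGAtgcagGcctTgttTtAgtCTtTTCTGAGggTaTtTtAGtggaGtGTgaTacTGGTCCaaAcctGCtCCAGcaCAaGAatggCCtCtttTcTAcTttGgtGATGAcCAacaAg
Abcc9 SUR2B ending: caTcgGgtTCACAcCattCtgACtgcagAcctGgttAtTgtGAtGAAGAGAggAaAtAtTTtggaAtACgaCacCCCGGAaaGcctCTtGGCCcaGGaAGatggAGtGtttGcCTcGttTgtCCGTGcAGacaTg
The endings were identical at 69 of 135 bases (51.1%). They were told apart by the last coding exon of Abcc8, whose protein ending is known to resemble that of SUR2B: it matched the SUR2B ending at 94 bases (69.6%) and the SUR2A ending at 70 bases (51.9%).

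SUR2A-ending transcripts held 70.4% of the Abcc9 TPM with either ending in replicate 2 and 69.2% in replicate 1 (69.8 ± 0.849%, SD, n = 2). Their summed level was 42.23 TPM in replicate 2 and 40.19 TPM in replicate 1. The SUR2B-ending transcript Abcc9-203 had 17.73 TPM in replicate 2 and 17.89 TPM in replicate 1. The libraries hardly differed in either form, and the striated muscle ending was the more abundant in both. The second quantification gave the SUR2A ending 78.9% in replicate 2 and 78.0% in replicate 1. Counted by the SUR2B ending alone, Abcc9 stood close to Pdgfrb in level, at 17.73 TPM beside 19.0 TPM in replicate 2 and 17.89 TPM beside 20.09 TPM in replicate 1. By the second quantification they stood farther apart, at 15.7 TPM beside 24.1 TPM in replicate 2 and 15.94 TPM beside 25.7 TPM in replicate 1.

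Mcam (ENSMUSG00000032135.15, mm10 chr9:44134469-44142727, plus strand) encodes CD146, an adhesion molecule of pericytes, smooth muscle and endothelial cells. It had 40.85 TPM in replicate 2 and 29.16 TPM in replicate 1 (35.0 ± 8.27 TPM, SD, n = 2), the widest spread of the pericyte genes in TPM. By the second quantification it had 65.3 TPM in replicate 2 and 45.3 TPM in replicate 1, a mean of 55.3 TPM. In TMM-scaled counts the log2 ratio was 0.19 (0.11 to 0.27, exact binomial, adjusted p = 4.9e-05), whereas the log2 ratio of its TPM was 0.49. For all 10 genes the log2 ratio of TPM, which is not TMM-scaled, lay above that of the counts, as for Abcc9 at 0.06 beside -0.11. Mcam-206, a transcript of 457 bases, held 20.79% of Mcam TPM in replicate 2 and 14.7% in replicate 1. It had 98.86 and 43.16 expected counts in those libraries. Mcam is known in a form with a long cytoplasmic tail and a form with a short one. The exon below, 118 bases at mm10 chr9:44141275-44141392 on the plus strand, is shown because Mcam-201, the long form, has it and Mcam-202, the short form, lacks it. All its bases are in capitals.
Mcam exon of the long form: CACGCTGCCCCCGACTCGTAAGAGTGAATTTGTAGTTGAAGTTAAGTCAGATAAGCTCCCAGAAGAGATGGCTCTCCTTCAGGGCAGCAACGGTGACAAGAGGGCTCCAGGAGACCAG
The short form held 31.6% of the TPM of both in replicate 2 and 27.2% in replicate 1, against 18.6% in replicate 2 and 18.7% in replicate 1 by the second quantification. The long form was the more abundant in each library by either quantification.

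Tagln (ENSMUSG00000032085.5, mm10 chr9:45929619-45936058, minus strand) encodes transgelin, or SM22-alpha, an actin-binding protein of smooth muscle. It had 31.53 TPM in replicate 2 and 18.02 TPM in replicate 1 (24.8 ± 9.55 TPM, SD, n = 2), the highest of the contractile genes. Its 1093 counts in replicate 2 and 498 in replicate 1 gave a log2 ratio of 0.76 (0.61 to 0.92, exact binomial, adjusted p = 1.89e-22), which exceeded that of 95.2% of genes tested but lay under the 2-fold limit for a call. A short transcript of 369 bases, Tagln-202, held 34.92% of its TPM in replicate 2 and 41.6% in replicate 1. The second quantification gave that transcript 0 counts in both libraries, so its share depends on the method.

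Cnn1 (ENSMUSG00000001349.5, mm10 chr9:22099216-22109630, plus strand) encodes calponin 1, an actin-binding protein that damps smooth muscle myosin. It had 3.84 TPM in replicate 2 and 0.94 TPM in replicate 1, with 119 and 34 counts in those libraries. Cnn1 was the 1 gene of the 10 called between the libraries, beside 3.4% called of all genes tested with 1.78% called as higher and 1.62% as lower in replicate 2. Genes were called at an adjusted p below 0.05 if they also differed at least 2-fold. Cnn1 rose by 1.42 on the log2 scale in replicate 2 (0.88 to 2.03, exact binomial, adjusted p = 4.26e-07). The call was lost with edgeR's exact test and a dispersion estimated from both libraries as 1 group, at an adjusted p of 0.0741. That dispersion was 1 common value for all genes, drawn from the same 2 libraries, so the test set each gene against their own average spread. The transcripts of Cnn1 could not be ordered: Cnn1-202 led in replicate 2, Cnn1-204 led in replicate 1, and the second quantification placed Cnn1-205 first in both.

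Lmod1 (ENSMUSG00000048096.7, mm10 chr1:135324807-135368065, plus strand) encodes leiomodin 1, the smooth muscle member of a family that nucleates actin filaments. It had the lowest mean level, 1.63 TPM in replicate 2 and 1.67 TPM in replicate 1 (1.65 ± 0.0283 TPM, SD, n = 2). Its log2 ratio of -0.20 (-0.49 to 0.10, exact binomial, adjusted p = 0.344) had an interval that held 0 and turned to 0.02 with ERCC scaling. For the other 9 genes the interval did not hold 0.

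Myh11 (ENSMUSG00000018830.10, mm10 chr16:14194535-14291372, minus strand) encodes the smooth muscle myosin heavy chain, a widely used marker of differentiated smooth muscle. It had 10.48 TPM in replicate 2 and 8.59 TPM in replicate 1 (9.54 ± 1.34 TPM, SD, n = 2), with a log2 ratio of 0.14 (0.05 to 0.24, exact binomial, adjusted p = 0.014). Replicate 2 was the higher by a small margin. Myh11 transcripts differ at 2 places. A small exon in the motor head gives the SM-B form, known for faster motors, and its absence the SM-A form. The choice of the last coding exon gives the SM1 tail or the shorter SM2 tail. These sequences are shown, from the GENCODE M21 transcripts on the minus strand of mm10 chromosome 16, because the shares below rest on them. Capitals mark the 21-base SM-B exon at chr16:14248580-14248600, the 130 coding bases of the SM1 end at chr16:14195055-14195184 and the 28 coding bases of the SM2 end at chr16:14198061-14198088. Lower-case letters are the 30 flanking bases of the same transcript on each side where present.
Myh11 with the insert (SM-B): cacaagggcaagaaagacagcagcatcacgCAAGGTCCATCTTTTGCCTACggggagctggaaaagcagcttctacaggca
Myh11 without the insert (SM-A): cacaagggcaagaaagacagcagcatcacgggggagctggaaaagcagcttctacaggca
Myh11 SM1 tail: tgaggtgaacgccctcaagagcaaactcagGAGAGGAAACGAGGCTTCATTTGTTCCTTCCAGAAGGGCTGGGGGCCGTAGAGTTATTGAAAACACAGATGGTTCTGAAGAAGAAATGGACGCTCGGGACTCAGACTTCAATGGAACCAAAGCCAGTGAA
Myh11 SM2 tail: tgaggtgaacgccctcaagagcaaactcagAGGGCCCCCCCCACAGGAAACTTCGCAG
Myh11-201, with SM1 and no insert, held 70.92% of the gene's TPM in replicate 2 and 76.01% in replicate 1. The SM-B transcript Myh11-204 held 25.1% of the coding transcripts in replicate 2 and 20.2% in replicate 1 (22.6 ± 3.46%, SD, n = 2). The second quantification gave SM-B 29.0% in replicate 2 and 30.8% in replicate 1, so the order of the libraries depended on the method. The SM2 tail, on Myh11-202, held 3.46% in replicate 2 and 2.02% in replicate 1, and 6.01% and 4.78% in those libraries by the second quantification. The form without the insert and the SM1 tail were the major forms throughout.

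**Figure D2:**
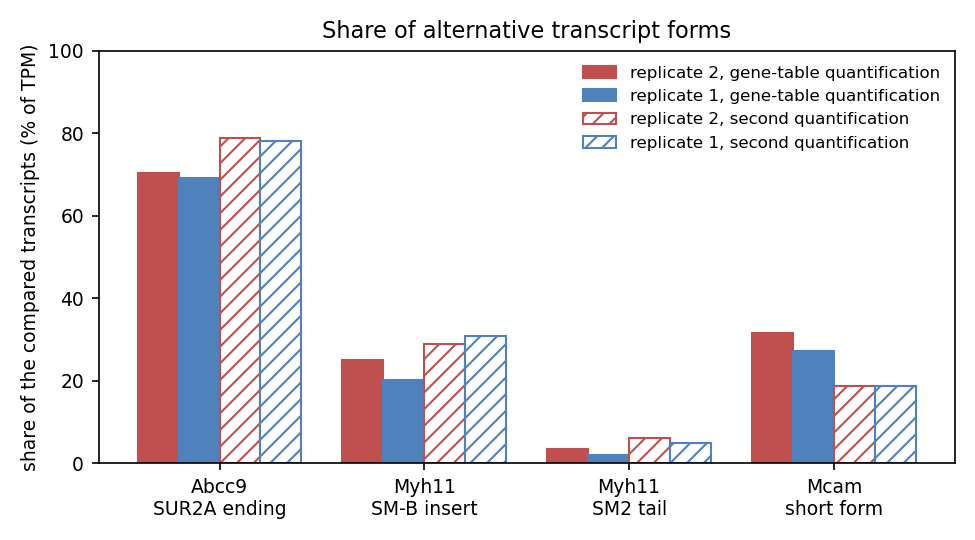
Share of the SUR2A ending of Abcc9, the SM-B insert and SM2 tail of Myh11 and the short form of Mcam, as percent of the TPM of the transcripts compared (axis from 0). Filled bars are the gene-table quantification and hatched bars the second quantification, with replicate 2 left of replicate 1 in each; the SUR2A ending was above 69% in all 4 values and the SM2 tail at most 6.01%.

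The 6 pericyte genes were set against the 4 contractile genes within each library. Pericyte genes summed to 253 TPM in replicate 2 and 236 TPM in replicate 1, whereas contractile genes summed to 47.5 TPM in replicate 2 and 29.2 TPM in replicate 1. The pericyte sum was therefore 5.33 times the contractile sum in replicate 2 and 8.09 times in replicate 1, or 2.71 ± 0.43 on the log2 scale (SD, n = 2). Rgs5 made up 41.1% of the pericyte sum in replicate 2 and 45.3% in replicate 1. Tagln made up 66.4% of the contractile sum in replicate 2 and 61.7% in replicate 1. Without Rgs5 the mean log2 ratio of the sums was 1.90. The pericyte sum includes the SUR2A transcripts of Abcc9 described above. The 12 further smooth muscle genes read below, Acta2 among them, summed to 649 TPM in replicate 2 and 371 TPM in replicate 1. That was above the pericyte sum in both libraries, so the order depends on which smooth muscle genes are counted. It set 12 genes against 6. Acta2 gave 306.11 TPM of it in replicate 2 and 119.31 TPM in replicate 1, and Synpo2 gave 94.16 and 86.6 TPM. Both genes are also made outside smooth muscle, as described below.

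The pericyte genes had log2 ratios between -0.24 and 0.35 with a median of 0.02, and the contractile genes between -0.20 and 1.42 with a median of 0.45, beside a median of 0.01 over all genes tested. Of the pericyte genes, Cspg4, Notch3 and Mcam lay above 0, and Rgs5, Abcc9 and Pdgfrb below it. No pericyte gene was called, beside 3.4% of all genes tested. Of the contractile genes, Tagln, Cnn1 and Myh11 lay above 0 and Lmod1 below it, and Cnn1 was called. The medians of the groups differed by 0.43, a description of 10 genes in 2 libraries with no test.

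**Figure D3:**
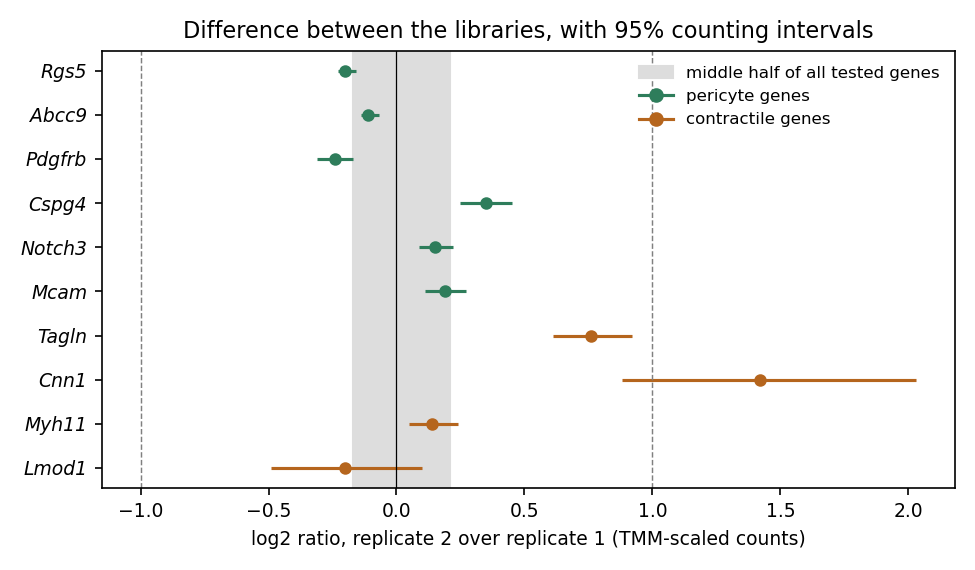
Log2 ratio of replicate 2 over replicate 1 for each gene in TMM-scaled counts, with exact binomial 95% intervals that cover counting error only; dashed lines mark 2-fold and the grey band runs between the quartiles of all genes tested, -0.17 and 0.21. The pericyte genes lay between -0.24 and 0.35, and Cnn1 at 1.42 was the gene past the 2-fold line.

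Other genes of the vessel wall and of the pathways around the 10 genes were read from lists. Of 14 further mural genes none was called, beside 3.4% of all genes tested (1 of 14 by the sum of gene counts, with ERCC scaling or by the second quantification), 9 lay above 0 and the median log2 ratio was 0.17. Cd248, which encodes endosialin of pericytes and fibroblasts, had 21.04 TPM in replicate 2 and 11.99 TPM in replicate 1, with a log2 ratio of 0.65 (0.53 to 0.77). Ndufa4l2, a mitochondrial protein gene enriched in pericytes, had 11.34 TPM in replicate 2 and 9.4 TPM in replicate 1, with an interval that held 0 (-0.12 to 0.40). The list thus held genes on either side of 0. The highest ratio was that of Tbx18, a transcription factor gene of mural cells, at 0.98 (0.56 to 1.42), just under 2-fold with 1.11 TPM in replicate 2 and 0.65 TPM in replicate 1.

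Of 12 further smooth muscle genes, 2 were called and both rose in replicate 2, against 1.78% of all genes called in that direction, with a list median of 0.20. Acta2, the smooth muscle alpha-actin also made by young muscle fibres and activated fibroblasts, had 306.11 TPM in replicate 2 and 119.31 TPM in replicate 1. Acta2 rose by 1.19 on the log2 scale (1.14 to 1.23), and its adjusted p with an estimated dispersion was 0.0375 by edgeR. Actg2, the enteric smooth muscle gamma-actin, was low at 2.43 TPM in replicate 2 and 0.55 TPM in replicate 1 and rose by 1.94 (1.25 to 2.76, adjusted p = 1.23e-08 by the exact binomial test), or by 1.24 in the second quantification. Myl9, a regulatory light chain of smooth muscle and nonmuscle myosin, had 109.05 TPM in replicate 2 and 57.98 TPM in replicate 1, a log2 ratio of 0.76 that was not called. Synpo2, an actin-bundling protein gene of smooth and striated muscle, had 94.16 TPM in replicate 2 and 86.6 TPM in replicate 1, with a log2 ratio of -0.02. Acta2 stood at 9.71 times Tagln in replicate 2 and 6.62 times in replicate 1 and was the more abundant in both. By the second quantification it was 18.2 times Tagln in replicate 2 and 13.2 times in replicate 1.

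The genes of the transcription factors upstream had log2 ratios between 0.03 and 0.64, with Mrtfa the highest. The 12 smooth muscle genes ran from -0.05 to 1.94, but a longer list tends to span a wider range, so the widths were not compared. Srf, which encodes serum response factor, had 32.26 TPM in replicate 2 and 25.25 TPM in replicate 1. Its cofactor genes Mrtfa and Mrtfb had 18.24 and 16.25 TPM in replicate 2, against 10.27 and 14.72 TPM in replicate 1. Myocd, which encodes the smooth muscle and heart cofactor myocardin, was low at 0.69 TPM in replicate 2 and 0.36 TPM in replicate 1. None of these 4 genes was called, beside 3.4% of all genes tested, and their median log2 ratio was 0.21. The CArG box bound by serum response factor was searched for on both strands in RefSeq promoter windows (GRCm38.p6), 300 bases around each gene's start, which matched 7 of the 10 genes. Tagln, Myh11 and Pdgfrb were not among them. It was in 0 of 7 windows, beside 1.63% of all 32851 windows. With 1 mismatch it was in the windows of Cspg4 and Lmod1, 28.6% beside 21.1% of all. These matches describe letters in the window and say nothing of binding.

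Among ligands and related receptors, Pdgfb, the ligand that pericytes respond to, had 18.76 TPM in replicate 2 and 14.05 TPM in replicate 1. Pdgfra, the receptor of fibroblasts and other interstitial cells, had 20.17 TPM in replicate 2 and 18.26 TPM in replicate 1, which was 1.06 times Pdgfrb in replicate 2 and 0.909 times in replicate 1. The 5 genes of this list held no call, beside 3.4% of all genes tested. Their median log2 ratio was 0.24, with Pdgfa, the ligand of Pdgfra, at 10.86 TPM in replicate 2 and 6.83 TPM in replicate 1. Of 12 Notch pathway genes none was called, beside 3.4% of all genes tested. Of the 12, 7 lay above 0 with a median of 0.09, beside 51.37% of all genes tested above 0. Notch2, a receptor that mural cells share with many cells, stood at 0.61 times Notch3 in replicate 2 and 0.611 times in replicate 1, a steady proportion. The ligand gene Jag2 had 12.41 TPM in replicate 2 and 9.3 TPM in replicate 1. Rbpj, the DNA-binding partner of Notch receptors, had 10.79 TPM in replicate 2 and 9.46 TPM in replicate 1, and it shared reads with other sequences.

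The contractile genes have family members typical of other cell types, and for Lmod1, Cnn1 and Myh11 at least 1 of these was the more abundant in both libraries. Lmod2 and Lmod3, the leiomodins of heart and skeletal muscle, had 57.57 and 70.33 TPM in replicate 2, against 96.79 and 58.76 TPM in replicate 1. Lmod3 was 43.1 times Lmod1 in replicate 2 and 35.2 times in replicate 1. Lmod2 had a log2 ratio of -0.91 (-0.97 to -0.85), just inside 2-fold and opposite in sign to most contractile genes. Cnn3, the calponin of non-muscle cells, was 8.19 times Cnn1 in replicate 2 and 24.2 times in replicate 1, and Cnn2 was 3.15 times Cnn1 in replicate 2 and 7.3 times in replicate 1. Myh9, a nonmuscle myosin heavy chain gene, was 5.15 times Myh11 in replicate 2 and 4.91 times in replicate 1, while Myh10 and Myh14 averaged 9.43 and 9.61 TPM beside 9.54 TPM for Myh11. Tagln2, the transgelin of non-muscle cells, had 29.44 TPM in replicate 2 and 26.22 TPM in replicate 1, which was 0.934 times Tagln in replicate 2 and 1.46 times in replicate 1. The second quantification gave 1.45 times in replicate 2 and 2.38 times in replicate 1, so the order of the pair in replicate 2 depended on the method. Tagln3, a neuronal gene, had 9 counts in replicate 2 and 0 in replicate 1.

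Markers of other cell types were compared between the libraries as well. Of 10 endothelial genes none was called, beside 3.4% of all genes tested. Of the 10, 8 lay below 0 (5 with ERCC scaling), whereas 51.37% of all genes tested lay above 0. The endothelial genes summed to 243 TPM in replicate 2 and 263 TPM in replicate 1, with a median log2 ratio of -0.29. The pericyte sum was 1.04 times the endothelial sum in replicate 2 and 0.9 times in replicate 1. All 5 Schwann cell markers reported lay above 0 with a median of 1.01, and 3 of them (4 with ERCC scaling) were called as higher in replicate 2: Mbp at 1.30, Pmp22 at 1.05 and Prx at 1.01, all genes of the myelin sheath, beside 1.78% of all genes called in that direction. With edgeR's exact test and an estimated dispersion, Mbp kept its call (adjusted p = 0.0133), and those of Pmp22 (adjusted p = 0.109) and Prx (adjusted p = 0.153) were lost. The 5 Schwann cell markers summed to 342 TPM in replicate 2 and 142 TPM in replicate 1. The 8 fibroblast markers summed to 3450 TPM in replicate 2 and 2170 TPM in replicate 1, with a median of 0.31. Of these, 7 lay above 0 and none was called, beside 51.37% and 3.4% of all genes tested. The 5 tendon markers summed to 221 TPM in replicate 2 and 158 TPM in replicate 1 with a median of 0.46. The 6 macrophage markers summed to 53.7 TPM in replicate 2 and 45.0 TPM in replicate 1 with a median of 0.09. None of either list was called, beside 3.4% of all genes tested. The part of these cell types in the levels of Cnn1, Tagln, Acta2 and the other genes was not tested. All the defining markers of these lists were detected in both libraries.

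**Figure D4:**
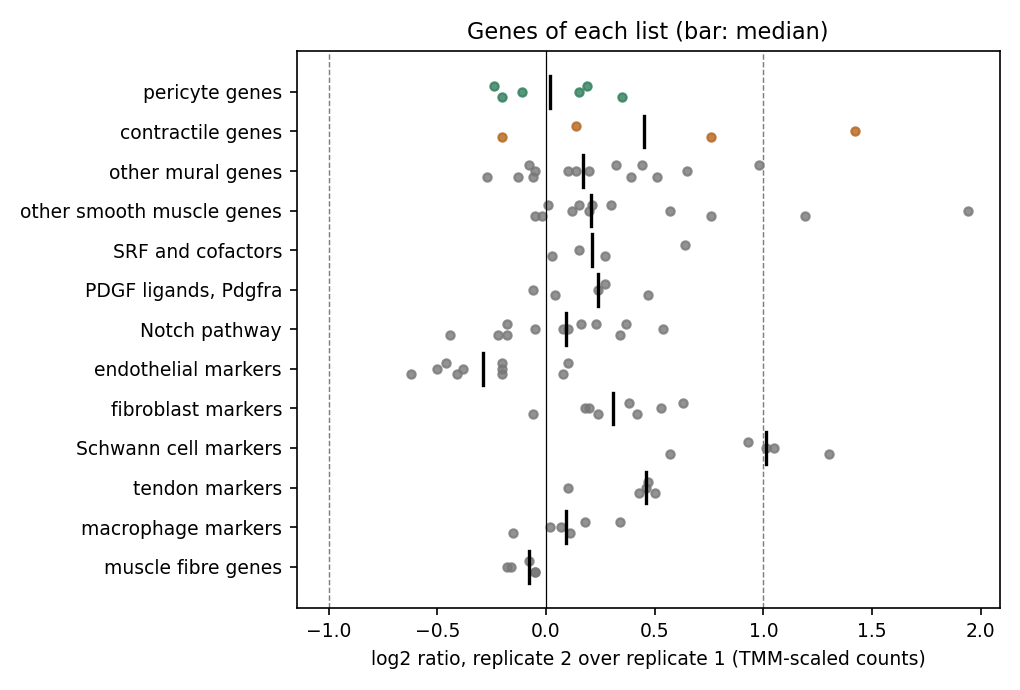
Log2 ratio of replicate 2 over replicate 1 for each tested gene of the lists (points) and the list median (black bar), in TMM-scaled counts, with dashed lines at 2-fold. Schwann cell markers had a median of 1.01, contractile genes 0.45, pericyte genes 0.02 and endothelial markers -0.29.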

How the data were processed

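Total RNA with ERCC spike-ins was quantified on mouse assembly mm10 with GENCODE M21, per the accompanying notes; which aligner and quantifiers were run is not given in the sources used here. Deposited gene and transcript tables hold expected counts, TPM and isoform percent, the share of a gene's TPM in each transcript. The same deposited tables hold an upper interval bound of each level and a posterior standard deviation of each count, signal values on the TPM and count scales, per the file headers. A further deposited transcript table per library holds estimated counts and TPM made directly from the reads. All 55536 gene IDs matched M21. A further 26249 rows that name no gene, with 0 counts in replicate 2 and 2 in replicate 1, were left out. Spike-ins held 317175 counts in replicate 2 and 285877 in replicate 1.

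A quasi-likelihood test in edgeR could not be run, since 1 library a side leaves no residual degrees of freedom. Counts were therefore rounded and scaled by TMM (edgeR 4.0.16, R 4.3.3), and genes whose counts summed to at least 20 were compared by a two-sided exact binomial test with Benjamini-Hochberg adjustment over all genes tested (Python 3.11.15, scipy 1.17.1). Calls needed an adjusted p under 0.05 and a 2-fold change, with a prior count of 0.5. Intervals are 95% Clopper-Pearson. Size factors of DESeq2 1.42.0 served as an alternative. The 10 genes, the lists, tests and alternatives were chosen with earlier results of these data known. Named are all 10 genes, all family members, and of each list the 3 genes of highest mean TPM and those called; some are given only within sums, Abcc8 and Myocd complete their lists, and Tbx18 was chosen after its values were seen. A listed gene is not reported here.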

Additional observations from a re-analysis of the deposited data

How the results depend on the processing

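The log2 ratios of 3 of the 10 genes changed sign with the scaling. Rgs5 stood at 0.02 with ERCC scaling, Lmod1 at 0.02 with it, and Abcc9 at 0.02 by the sum of gene counts and 0.11 with ERCC scaling, in place of -0.20, -0.20 and -0.11. The median of the 10 genes, 0.15, was 0.27 by the sum of gene counts and 0.37 with ERCC scaling. Of the 535 calls 52.3% were higher in replicate 2, against 67.8% by the sum of gene counts and 78.7% with ERCC scaling. With edgeR's exact test and an estimated dispersion, 156 genes were called, 37.2% of them higher, and 0 of the 10 genes. Cnn1 stood at 1.43 there (adjusted p = 0.0741). The median level of 17.6 TPM was 20.1 by the second quantification and 36.0 over nuclear coding genes, and 16.2 to 17.9 with 1 library left out. The log2 ratio of pericyte to contractile sums, 2.71, was 3.68 for counts not divided by length and 1.90 without Rgs5, and 2.41 to 3.02 with 1 library left out. By the second quantification the median share of the leading transcript was 92.7% in place of 71.8%, the SUR2A share 78.5% in place of 69.8% and the SM-B share 29.9% in place of 22.6%. The CArG count of 0 was 2 with 1 mismatch allowed, an alternative chosen after seeing the data, as were those for the transcript forms. Of the 70 alternatives for the ratios of single genes, 65 kept their direction and side of the limit. Some of them, such as dropping the minimum count, leave the log2 ratio itself unchanged, so this count says little about stability. The 4 reversals all came with the sum of gene counts or with ERCC scaling. Among alternatives for the levels of single genes, 19 moved the mean TPM by at least the SD of the libraries. The other 31 moved it by less, and they include those with 1 library left out, which always do. By the second quantification Rgs5 had a mean of 124 TPM in place of 106 and Abcc9 80.9 TPM in place of 60.8. The causes of these moves were not tested. Ratios between the libraries could not be recomputed with a library left out. No paired analysis was possible because the series holds 1 group. Depth limits Cnn1, with 34 counts in replicate 1, and Lmod1, with 181 there.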
